A study of Mus musculus with 13 samples.

Results

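The growth factor receptor kinases followed here were 10 genes, namely Egfr, Erbb2, Erbb3, Erbb4, Fgfr1, Fgfr2, Fgfr3, Igf1r, Ntrk2 and Ntrk3. They were chosen by name, and all 10 were found among the 21938 protein-coding genes of the GENCODE M21 annotation of mm10 (GRCm38). For each gene, the called peaks of H3K4me3 and H3K27me3 within 2 kb of any transcription start site (TSS) or in the gene, and the OLIG2 called peaks in the gene and 5 kb upstream, were read from the deposited lists. A peak present in a list is called listed below, whatever its score.

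The study profiled 3 stages of mouse oligodendrocyte development by ChIP-Seq. Neural stem cells (NSCs) were bought cells from E14.5 CD-1 cortex per the growth protocol, although the strain field gives C57BL/6, and were grown in culture with EGF and FGF at 20 ng/ml each, which are ligands of the receptors described here. Oligodendrocyte precursor cells (OPCs) and newly formed oligodendrocytes (NFOs) were purified from postnatal day 7 C57BL/6 brains by immunopanning, OPCs on an antibody to PDGFRα and NFOs on an antibody to GalC. All cells were untreated and carried no transgene or deletion in the labels. H3K4me3 and H3K27me3 were profiled at all 3 stages (6 libraries) and OLIG2 in OPCs and NFOs (2 libraries). RNA bound by OLIG2 was profiled by RIP-Seq beside a control (2 libraries). The title of the control library says input and the Methods say IgG, the name used below. There was 1 library per stage and target, so no value has a replicate error and no difference between stages could be tested. Counts of genes are therefore read beside the share of all protein-coding genes with the same call.

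Receptor tyrosine kinases are single-pass membrane proteins that bind a growth factor outside the cell, pair up, and phosphorylate each other on tyrosines inside it, which recruits adaptors and starts the RAS-MAPK and PI3K-AKT cascades. In the oligodendrocyte lineage EGF and FGF receptors are known for expansion of progenitors, ERBB3 and ERBB4 for the response to neuregulins, IGF1R for survival and growth, and TRKB and TRKC (encoded by Ntrk2 and Ntrk3) for the response to BDNF and NT-3. H3K4me3 marks the promoters of active or poised genes, H3K27me3 is deposited by Polycomb complexes at silent genes, and a promoter that carries both marks is called bivalent. OLIG2 is a basic helix-loop-helix transcription factor that defines the lineage.

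The 6 histone lists held 12688 to 36069 called peaks and the OLIG2 lists 7384 in OPCs and 16911 in NFOs. The number of reads behind them is unknown. Median H3K4me3 peak widths were 553, 987 and 255.5 bp by stage, and the peak names mark the NSC libraries as single-end and the others as paired-end, so widths are not on 1 scale. The antibody field of each histone library names the mark that its title does not, and the titles were used. H3K4me3 was listed near a TSS at 6 of 6 OPC markers in OPCs, at 5 of 6 OPC markers in NFOs, and at 1 of 8 oligodendrocyte markers in NFOs (Cnp, fold enrichment 3.31), against 4 of 8 in OPCs. Of 5 microglial markers 0, 1 and 0 carried H3K4me3 by stage (NSC, OPC, NFO), of 3 endothelial markers 0, 0 and 0, of 5 astrocyte markers 2, 1 and 1, of 5 neuron markers 4, 5 and 4, and of 6 NSC markers 6, 6 and 4. The part of cell purity in the values of the receptor genes was not tested.

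All 10 receptor genes had listed H3K4me3 within 2 kb of a TSS in NSCs, 9 still had it in OPCs, and NFOs had it at 6. The same call was made for 64.3%, 60.8% and 43.6% of all protein-coding genes. The receptor genes lay above this background in NSCs and OPCs and nearer to it in NFOs, and both shares were lowest in NFOs. Any TSS counted, the receptor genes had from 1 (Erbb3) to 18 (Fgfr1) annotated TSSs, and the background was not matched for that number. With 1 TSS per gene the counts were 8, 7 and 5. Erbb3, Erbb4, Fgfr3, Igf1r, Ntrk2 and Ntrk3 had the mark at all 3 stages (6 of 10, against 41.7% of all genes). Egfr, Erbb2, Fgfr1 and Fgfr2 had it in NSCs and not in NFOs (4 of 10, against 34.2% of the genes with H3K4me3 in NSCs), a share near the background. H3K27me3 was listed at 4 receptor genes in NSCs, at 3 OPC genes and at a single gene, 1 of 10, in NFOs (background 15.1%, 16.4% and 9.55%). Its peaks at these genes were narrow. Overlap of the marks near a GENCODE TSS was listed for 2 genes in NSCs, Erbb4 and Fgfr3, and for 0 in OPCs and NFOs (background 8.57%, 5.44% and 2.89%). With the Methods filter on fold enrichment, above 3.5, the NSC counts were 1 for H3K27me3 (Erbb3) and 0 for the overlap.

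**Figure D1:**
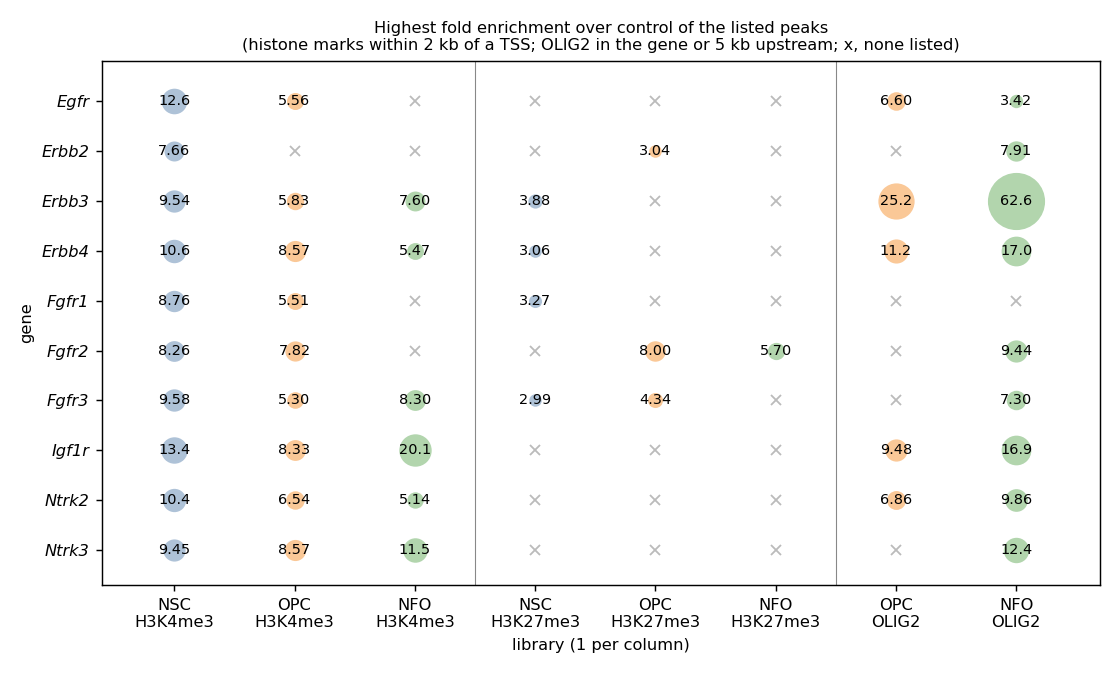
Highest fold enrichment over control (the number in each circle, whose area is proportional to it) of the listed peaks at each gene, 1 library per column. H3K4me3 circles fill the NSC column and thin out to 6 in NFOs. H3K27me3 circles are few, with the largest at Fgfr2 in OPCs, from a peak near an internal TSS. The largest circle is that of the NFO OLIG2 peak upstream of Erbb3 (62.6).

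The H3K4me3 peaks of the receptor genes were broad in NSCs and OPCs and short in NFOs. The length covered near a TSS ran from 1597 to 6337 bp for the NSC peaks, from 1180 to 5736 bp for the OPC peaks and only from 304 to 1529 bp for the NFO peaks. In NSCs and in OPCs, 5 receptor genes exceeded the 90th percentile of covered length among the genes with the mark, and in NFOs 0 did. Above the median of covered length were 8 of 10 genes in NSCs, 8 of 9 OPC genes and 5 of 6 NFO genes, so the NFO peaks were short in bp but not short for their list. In NSCs and OPCs every receptor gene with H3K4me3 near a TSS had a peak that held an annotated TSS (10 and 9 genes, against 59.8% and 53.5% of all genes). In NFOs a peak held a TSS at 1 gene, Erbb4, against 18.4% of all genes. Among genes with H3K4me3 near a TSS in NFOs, 42.3% had a peak that held a TSS, and 1 of the 6 receptor genes did. The nearest NFO peak of each of the other 5 genes lay between 13 and 223 bp from a TSS, and further peaks within 2 kb lay 594 bp away at Ntrk2 and 909 bp away at Ntrk3. With the 5′ end of the RefSeq gene in place of the GENCODE TSSs, the OPC count was 5 and the NFO count 2, where the NFO peak of Igf1r held the RefSeq start. The fold enrichment was above the median of the genes with the mark at 8 of 10 receptor genes in NSCs, at 5 of 9 OPC genes and at 6 of 6 NFO genes.

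**Figure D2:**
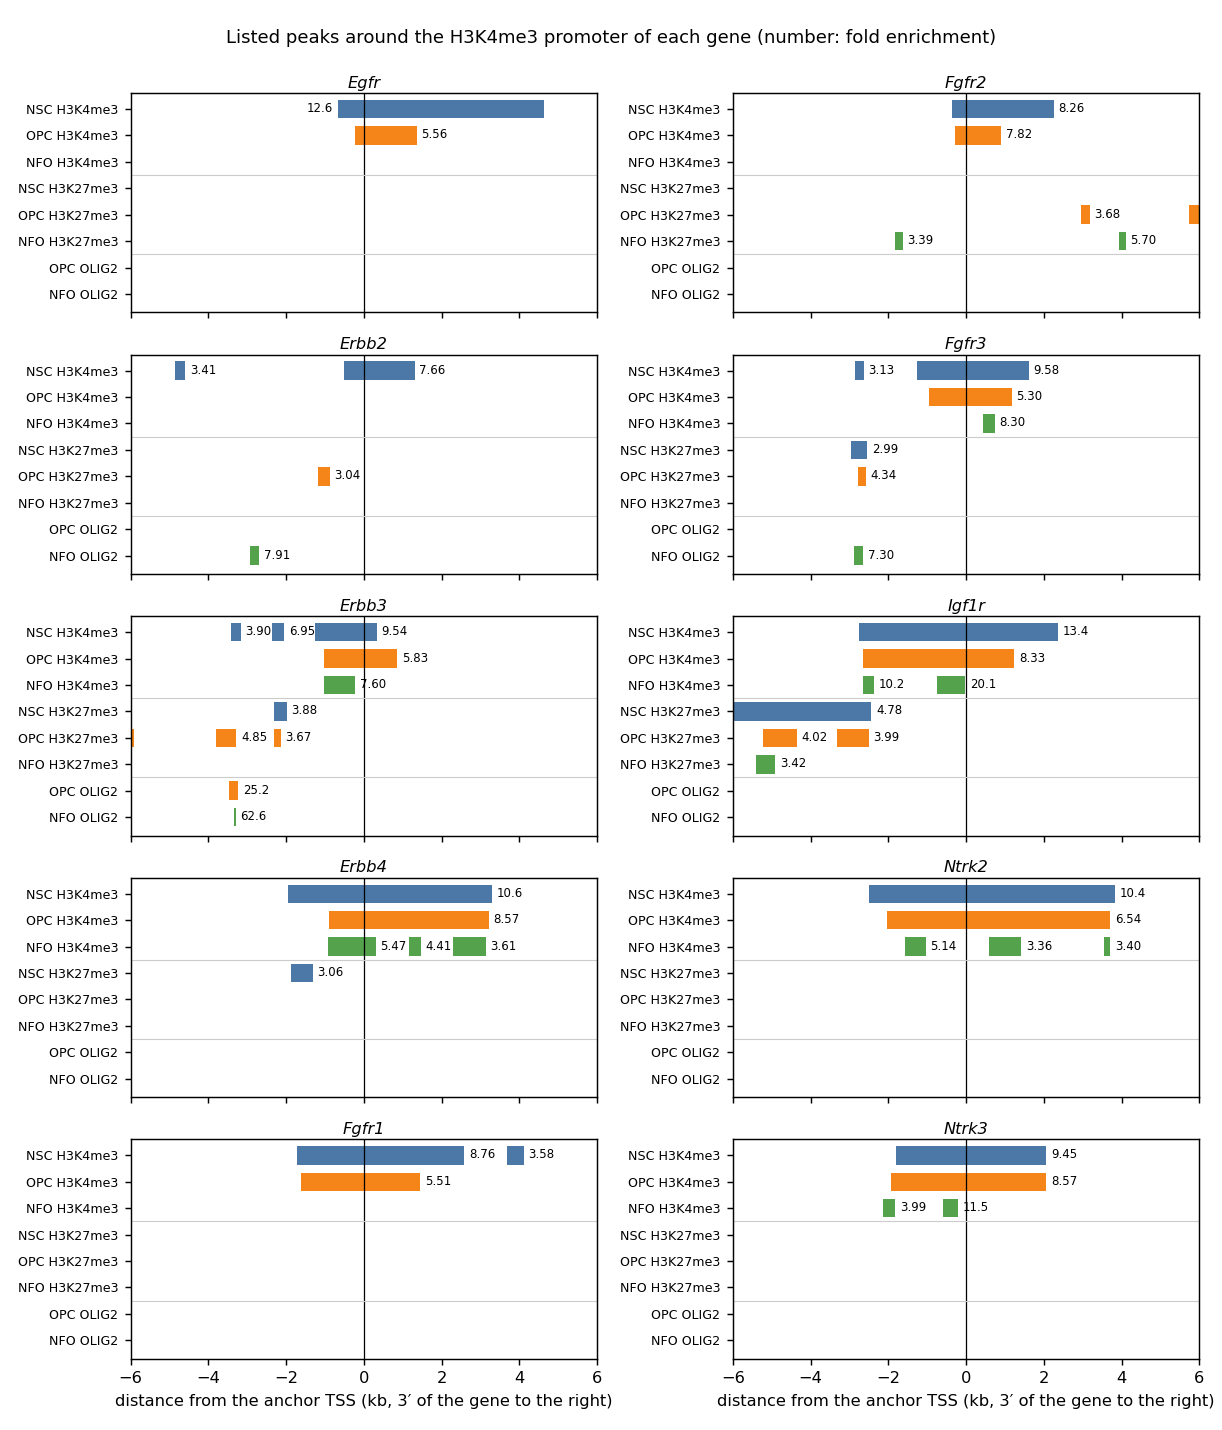
Listed peaks within 6 kb of the TSS nearest the NSC H3K4me3 peak of each gene (vertical line; x axis, distance in kb along the direction of transcription), 1 row per library, with the fold enrichment beside each bar and bars coloured by stage. The NSC and OPC H3K4me3 bars span the TSS, the NFO bars are shorter pieces beside it at 5 genes, and H3K27me3 lies mostly outside the H3K4me3 bars.

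**Figure D3:**
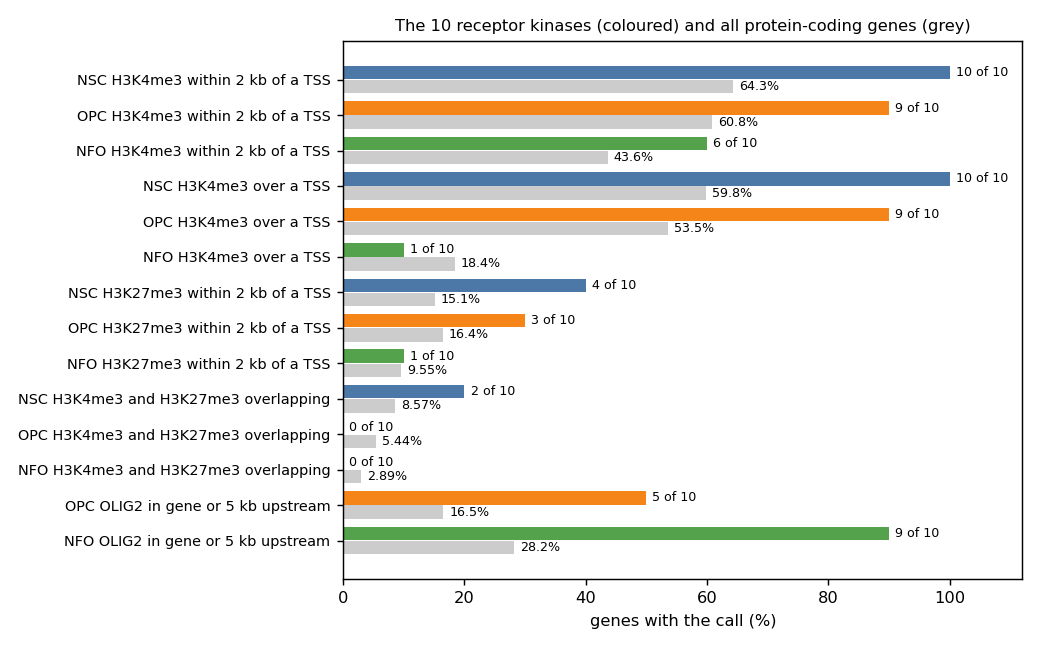
Percent of the 10 receptor genes (coloured by stage, with the count) and of all protein-coding genes (grey, with the percent) that carry each call. The H3K4me3 bars of the receptor genes exceed the grey bars within 2 kb of a TSS at each stage, and the NFO bar over a TSS is shorter than the grey bar.

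Within the ERBB family the 4 genes behaved differently at their promoters. Egfr, the receptor for EGF and TGFα, lies on chromosome 11 (16752203 to 16918158, plus strand). Its promoter H3K4me3 had a fold enrichment of 12.6 in NSCs over 5317 bp, 5.56 in OPCs over 1585 bp, and no listed peak in NFOs. The NSC value was at the 91.7th percentile of genes with the mark and the OPC value at the 30.2nd. Egfr H3K4me3 was therefore high among marked genes in NSCs, low in OPCs and unlisted in NFOs, and no H3K27me3 was listed near its TSSs at any stage. Erbb2, the ligand-less partner of the family (chromosome 11, 98412470 to 98437716, plus strand), had H3K4me3 in NSCs alone, with a fold enrichment of 7.66 over 1829 bp. An OPC H3K27me3 peak of 305 bp lay 862 bp upstream of the Erbb2 TSS, with a fold enrichment of 3.04 and a −log10 FDR of 1.02. As many as 1491 of the 29417 OPC H3K27me3 peaks share that fold enrichment.

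Erbb3, the kinase-impaired neuregulin receptor that signals through its partners (chromosome 10, 128567523 to 128589652, minus strand), had promoter H3K4me3 at each stage. The fold enrichments in NSCs, OPCs and NFOs were 9.54, 5.83 and 7.60, lowest in OPCs. In NSCs an H3K27me3 peak of 341 bp (fold enrichment 3.88) began 1984 bp upstream of the Erbb3 TSS, just inside the 2 kb limit. A separate NSC H3K4me3 peak of 322 bp (fold enrichment 6.95) overlapped it by 273 bp, with its near edge at -2052 bp from the TSS, just outside the limit. An OPC H3K27me3 peak of 176 bp (fold enrichment 3.67) lay at the same place, from -2312 to -2137 bp, also just outside the limit. Erbb4, the other neuregulin receptor with an active kinase (chromosome 1, 68032186 to 69108059, minus strand), went from 10.6 to 8.57 to 5.47 in H3K4me3 fold enrichment over the 3 stages. Its NSC peak of 5256 bp enclosed an H3K27me3 peak of 569 bp with a fold enrichment of 3.06, which is below the Methods filter of 3.5.

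The fibroblast growth factor receptors, which respond to FGFs held by heparan sulfate, gave 5 of the 8 H3K27me3 calls near a TSS. Fgfr1 (chromosome 8, 25513654 to 25575718, plus strand) had H3K4me3 of 8.76 over 4307 bp in NSCs and 5.51 over 3076 bp in OPCs, and none in NFOs. The peaks lay 6.18 kb inside the longest transcript, where 7 of its 18 annotated TSSs fall. An NSC H3K27me3 peak of 274 bp (fold enrichment 3.27) lay 1151 bp from another Fgfr1 TSS, 45571 bp into the gene. Fgfr2 (chromosome 7, 130162451 to 130266263, minus strand) had H3K4me3 of 8.26 and 7.82 in NSCs and OPCs, with no NFO peak. H3K27me3 near its TSSs comprised no NSC peak, 4 OPC peaks and 2 NFO peaks, with OPC and NFO highest fold enrichments of 8.003 and 5.70. The OPC peak of 8.003 lay 83834 to 84161 bp into the gene, 349 bp from an internal TSS. The NFO peak of 5.70 lay 4000 to 4184 bp into it. With the 5′ end as the only TSS, Fgfr2 had no OPC H3K27me3 call and kept the NFO call. That call came from the other NFO peak, of 184 bp, with its near edge 1565 bp upstream of the 5′ end. Its fold enrichment of 3.39 and −log10 FDR of 1.15 miss the Methods filter. A further 6 OPC and 4 NFO peaks lay elsewhere in the gene. Fgfr2 thus had the most H3K27me3 of the 10 genes in OPCs and NFOs, in pieces of 175 to 829 bp, and was the only receptor gene with H3K27me3 near a TSS in NFOs. None of these peaks overlapped its H3K4me3 peak in OPCs. Fgfr3 (chromosome 5, 33721674 to 33737068, plus strand) had H3K4me3 of 9.58 and 5.30 in NSCs and OPCs and 8.30 in NFOs. The NFO peak was 304 bp long, against 2872 and 2140 bp for the main NSC and OPC peaks. A spot about 1.6 kb upstream of Fgfr3 held narrow peaks in 4 libraries, namely H3K4me3 in NSCs (fold enrichment 3.13), H3K27me3 in NSCs (2.99) and OPCs (4.34), and OLIG2 in NFOs (7.30).

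Igf1r, the receptor for IGF1 and IGF2 (chromosome 7, 67952827 to 68233668, plus strand), had the highest promoter H3K4me3 of the 10 genes in NSCs and NFOs. The values by stage were 13.4, 8.33 and 20.1, at the 94.6th, 79.1st and 96.8th percentiles of genes with the mark. The covered length went from 5139 to 3897 to 730 bp over the same stages. Igf1r had no H3K27me3 within 2 kb of a GENCODE TSS. An NSC H3K27me3 domain of 6507 bp (fold enrichment 4.78) had its near edge at -2436 bp from the 5′ TSS. It overlapped the NSC H3K4me3 peak by 328 bp. In OPCs the same flank held H3K27me3 peaks of 866 bp (4.02) and 821 bp (3.99), and in NFOs a peak of 507 bp (3.42, −log10 FDR 1.21). The OPC peak of 821 bp overlapped the OPC H3K4me3 peak by 150 bp. The RefSeq start of Igf1r lies upstream of the GENCODE 5′ TSS, and the NSC domain and the 821 bp peak lie within 2 kb of it. The H3K27me3 and overlap calls of Igf1r thus depend on the TSS used. A second Igf1r site carried H3K4me3 at all 3 stages, in an intron, with edges 175487 to 177622 bp from the 5′ end in NSCs and the nearest annotated TSS 18141 bp away. The NSC peak there had 9.23 over 2136 bp, the OPC peak 12.5 over 1372 bp and the NFO peak 14.9 over 778 bp, so the value was highest where the peak was shortest. The nearest start of another gene, Pgpep1l, lay 133784 bp from the NSC peak.

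The neurotrophin receptors had H3K4me3 at each stage and no H3K27me3 near a TSS of the transcripts used here. Ntrk2, which encodes TRKB (chromosome 13, 58806569 to 59133970, plus strand), had H3K4me3 of 10.4, 6.54 and 5.14 by stage. Its peaks were among the longest of all genes, 6337 bp in NSCs and 5736 bp in OPCs, at the 98.0th and 99.2nd percentiles of covered length. In NFOs the same stretch held 3 short peaks of 538, 825 and 173 bp. Ntrk3, which encodes TRKC (chromosome 7, 78175959 to 78658109, minus strand), had H3K4me3 of 9.45, 8.57 and 11.5 by stage. Its mark lay about 80.3 kb from the 5′ end of the span used here, over 7 of the 16 TSSs used in NSCs and OPCs. No listed H3K4me3 peak lay at that 5′ end. The NSC and OPC peaks also held a TSS of the antisense gene Gm9885. For Ntrk3, 4 transcripts were left out, and with all GENCODE transcripts it gained an NSC H3K27me3 call.

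The promoter sequences of the genes with the most and the least lasting H3K4me3 were compared, since the mark is known to favour CpG-rich promoters. RefSeq promoters of GRCm38.p6 (300 bases, 250 before the start) were held for 7 of the 10 genes, with 2 for Fgfr3 and none matched for Erbb3, Fgfr1 and Ntrk3. Igf1r had 48 CpG dinucleotides in 300 bases, at the 99.0th percentile of the 32841 promoters. The 250 bases before the RefSeq start are printed 5′ to 3′ along the gene, with each CG in capitals, for Igf1r (chr7:67952007-67952256, plus strand, H3K4me3 at all 3 stages), Egfr (chr11:16751953-16752202, plus strand, NSCs and OPCs) and Erbb2 (chr11:98412234-98412483, plus strand, NSCs alone).
Igf1r promoter: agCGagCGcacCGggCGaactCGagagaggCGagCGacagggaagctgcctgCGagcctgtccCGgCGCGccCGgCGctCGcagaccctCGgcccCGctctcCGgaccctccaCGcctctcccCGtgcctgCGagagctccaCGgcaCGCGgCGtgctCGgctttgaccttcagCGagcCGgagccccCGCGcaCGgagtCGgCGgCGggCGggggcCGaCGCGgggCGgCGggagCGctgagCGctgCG
Egfr promoter: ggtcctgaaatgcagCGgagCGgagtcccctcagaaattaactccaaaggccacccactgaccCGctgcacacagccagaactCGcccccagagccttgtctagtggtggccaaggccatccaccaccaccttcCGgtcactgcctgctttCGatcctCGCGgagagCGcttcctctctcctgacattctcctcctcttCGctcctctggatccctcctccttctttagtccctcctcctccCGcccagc
Erbb2 promoter: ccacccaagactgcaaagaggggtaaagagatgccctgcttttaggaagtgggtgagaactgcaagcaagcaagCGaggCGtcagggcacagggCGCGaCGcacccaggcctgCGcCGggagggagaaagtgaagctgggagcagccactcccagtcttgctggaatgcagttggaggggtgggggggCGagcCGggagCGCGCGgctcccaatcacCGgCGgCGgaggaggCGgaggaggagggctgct
The counts in these 250 bases were 42 for Igf1r, 11 for Egfr and 16 for Erbb2. Over the full 300 bases Egfr had 15 and Erbb2 21, at the 67.0th and 76.9th percentiles. The promoters of Erbb4 and Ntrk2, which had H3K4me3 near a TSS at all 3 stages, held 17 and 23, and the 2 promoters of Fgfr3, another such gene, held 26 and 30. The Fgfr2 promoter held 4, and no H3K4me3 peak of any stage overlapped that window. The median was 22 over the 13981 promoters that an NSC H3K4me3 peak overlapped, 21 over the 4275 that an NFO peak overlapped, and 3 over the 18860 with no NSC peak. Among the matched genes, those with the mark near a TSS at all 3 stages had 17 to 48 CpGs. Those without it in NFOs had 4 to 21, so the ranges overlapped, and the 4 was that of the Fgfr2 window without a peak. No NFO H3K4me3 peak overlapped the Ntrk2 window or the 2 Fgfr3 windows, so the count and the call came from different places there. A link between CpG count and lasting H3K4me3 was not tested.

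OLIG2 was listed in the gene or 5 kb upstream at 5 of the 10 receptor genes in OPCs (Egfr, Erbb3, Erbb4, Igf1r and Ntrk2) and at 9 in NFOs, all except Fgfr1. The background was 16.5% of protein-coding genes in OPCs and 28.2% in NFOs. Most of these genes are long, and a long gene has more room for a peak. Of the 6 receptor genes of at least 100 kb, 4 had an OLIG2 peak in OPCs and 6 in NFOs, against 48.8% and 73.6% of all 2466 such genes. Per megabase of gene and upstream sequence, the receptor genes held 2.30 peaks in OPCs and 8.04 in NFOs, against 4.02 and 8.39 over all protein-coding genes, so they were not denser in OLIG2 peaks than genes at large. Genes of at least 100 kb held 3.12 and 6.72 peaks per megabase. There were 6 OPC and 21 NFO peaks at the receptor genes, and 23 of the 27 were intronic. The 4 others were upstream, at Erbb2, Erbb3 (a peak at each stage) and Fgfr3.

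OPC and NFO peaks overlapped at 2 receptor genes, Erbb3 and Igf1r (background 3.38% of genes). The Erbb3 site had the highest fold enrichments of any OLIG2 peak at the receptor genes. Its OPC peak (chr10:128592891-128593120) had a fold enrichment of 25.2, rank 181 of 7384, with its summit 3354 bp upstream of the TSS. Its NFO peak (chr10:128592947-128593008) had a fold enrichment of 62.6, rank 10 of 16911, with its summit 3304 bp upstream. A TSS of the lincRNA Gm47540 lay nearer to the summits, 2609 bp from that of OPCs and 2659 bp from that of NFOs. The NFO peak was 62 bp wide, whereas 16888 of the 16911 NFO peaks were 236 bp wide. The same place held an NSC H3K4me3 peak of 243 bp (3.90) and an OPC H3K27me3 peak of 521 bp (4.85). Erbb3 had 1 further NFO peak, intronic, with a fold enrichment of 8.72. The Igf1r site lay in an intron, 133 kb from the 5′ end and 62511 bp from the nearest TSS, with fold enrichments of 6.86 in OPCs and 7.38 in NFOs and summits 2 bp apart.

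**Figure D4:**
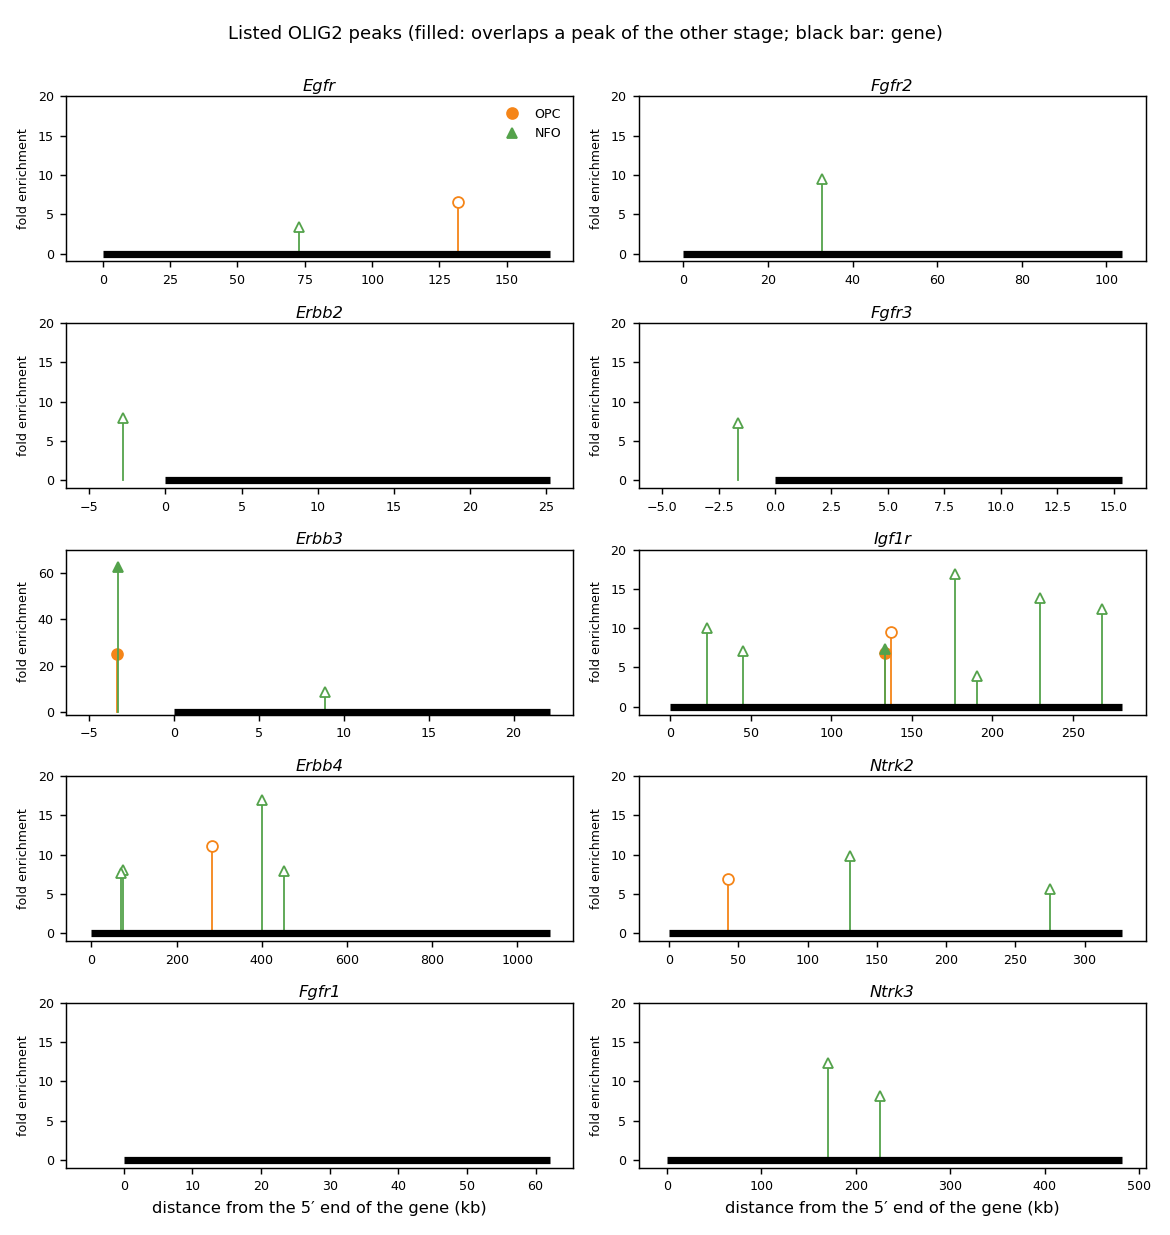
Fold enrichment of each listed OLIG2 peak (y axis, 0 to 20 except for Erbb3) against the distance of its summit from the 5′ end of the gene (x axis, kb; black bar, the gene), circles for OPCs and triangles for NFOs, filled where the peaks of both stages overlap. Most peaks stand inside long genes far from the 5′ end, and the tallest are the overlapping pair upstream of Erbb3.

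Of the other 8 receptor genes, Egfr, Erbb4 and Ntrk2 had OLIG2 peaks at both stages, at different places, Erbb2, Fgfr2, Fgfr3 and Ntrk3 had them in NFOs alone, and Fgfr1 had none. In Erbb4 the highest OPC peak reached 11.2, 282 kb from the 5′ end, and the highest of 4 NFO peaks reached 17.0, 400 kb from it. In Ntrk2 the OPC peak had 6.86 and the higher of 2 NFO peaks 9.86. In Egfr the OPC peak had 6.60 and the NFO peak 3.42 with an FDR of 0.121, which misses the Methods filter. Ntrk3 had 2 NFO peaks, of 12.4 and 8.17, Fgfr2 had 1 of 9.44, and Erbb2 had 1 of 7.91 with its summit 2787 bp upstream of the TSS. Igf1r had 7 NFO peaks, a number that 56 of the protein-coding genes reached (0.255%). That share is over genes of all lengths, whereas Igf1r is 281 kb long, and it was not taken among long genes alone. The fold enrichments of the 7 Igf1r peaks ran from 3.88 to 16.9, and the highest lay on the intronic H3K4me3 site described above. The lowest had an FDR of 0.0737, which misses the Methods filter. Of the H3K4me3 peaks inside receptor genes but away from a TSS (13 in NSCs, 4 in OPCs and 7 in NFOs), that Igf1r site was the only place where an OLIG2 peak overlapped.

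The sequences around OLIG2 summits were read from GRCm38 and searched for CANNTG, the E-box that basic helix-loop-helix factors bind, whose letters read alike on both strands. In windows of 101 bases centred on the summit, 2 of 6 OPC and 7 of 21 NFO peaks at the receptor genes held CANNTG, against 44.9% of all OPC windows and 42.2% of all NFO windows. CAGCTG was found in 0 of 27 (background 7.30% and 5.09%), CATATG in 0 of 27 (2.90% and 3.02%), and CAGATG or CATCTG in 1 (9.86% and 8.72%). The windows of the sites named above are printed 5′ to 3′ along the gene, with CANNTG in capitals where present, to show which of them hold it. They are the Erbb3 site by its OPC summit (chr10:128592956-128593056, minus strand) and its NFO summit (chr10:128592906-128593006, minus strand), the shared Igf1r intronic site by its OPC summit (chr7:68086029-68086129, plus strand), the Igf1r intronic H3K4me3 site (chr7:68129465-68129565, plus strand), the Fgfr3 upstream peak (chr5:33720008-33720108, plus strand) and the Egfr OPC peak (chr11:16884158-16884258, plus strand).
Erbb3 OPC: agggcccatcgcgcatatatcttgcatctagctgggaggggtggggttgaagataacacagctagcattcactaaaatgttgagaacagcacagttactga
Erbb3 NFO: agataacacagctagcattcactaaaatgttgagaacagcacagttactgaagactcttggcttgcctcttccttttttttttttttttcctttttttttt
Igf1r shared: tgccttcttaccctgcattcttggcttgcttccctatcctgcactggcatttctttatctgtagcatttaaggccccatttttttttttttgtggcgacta
Igf1r intronic H3K4me3 site: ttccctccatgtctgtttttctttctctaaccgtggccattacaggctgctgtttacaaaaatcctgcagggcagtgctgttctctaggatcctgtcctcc
Fgfr3 NFO: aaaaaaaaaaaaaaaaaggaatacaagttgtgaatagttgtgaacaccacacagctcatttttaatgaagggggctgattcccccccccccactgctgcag
Egfr OPC: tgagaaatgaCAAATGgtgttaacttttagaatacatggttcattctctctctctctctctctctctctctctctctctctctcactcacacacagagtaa
Only the Egfr window of these 6 held a match, CAAATG. Low-complexity sequence was present in several. The Erbb3 NFO window ended in a stretch of T and had 38.6% of its bases soft-masked as repeats in GRCm38. That window reaches beyond the 62 bp Erbb3 peak, which itself had 0% masked. The Fgfr3 window opened with a run of A and had 53.5% masked (60.2% of the peak). The Egfr window held a CT repeat and had 65.3% masked (51.7% of the peak). More than 50% of the window was masked in 21.4% of all OPC peaks and 27.2% of all NFO peaks.

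Narrow peaks of H3K4me3 and H3K27me3 coincided at several receptor genes. There were 7 places, in 5 genes, where a listed H3K4me3 peak and a listed H3K27me3 peak, each under 600 bp, overlapped, at the same stage or between stages. The share of all genes with such a place was not computed, so the count cannot be read as particular to the receptor genes. In Erbb4, 700 kb from the 5′ end, peaks with the same start were listed for OPC H3K4me3 (211 bp, 5.51), OPC H3K27me3 (219 bp, 5.63) and NFO H3K4me3 (206 bp, 9.08). The others were the places upstream of Erbb3 and Fgfr3 already described and intronic sites in Fgfr2 and Ntrk2. OLIG2 peaks overlapped the outer of the Erbb3 places and the Fgfr3 place.

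RIP-Seq sites were assigned to 2 receptor genes, Egfr and Erbb3, in the OLIG2 library and to the same 2 in the IgG library (background 2.52% and 2.54% of genes). The deposited lists also name Fgfr2, with 1568 OLIG2 sites (60724 tags) and 1232 IgG sites (60261 tags), but none of these lay on a transcript and within the span kept for Fgfr2 here, and they were left out. The labels assign the 2 RIP libraries to NFOs and the Methods to NSCs, and the title of the IgG library calls it input. Egfr had 555 OLIG2 sites with 10050 tags in all (exact Poisson 95% interval 9854 to 10248, counting error only) and 455 IgG sites with 9590 tags (9399 to 9784), a ratio of 1.05 in tags. Over all listed sites the ratio of tags was 1.01, so the Egfr signal in the OLIG2 library was close to that of the control. Erbb3 had 2 OLIG2 sites with 12 tags (6.20 to 20.96) and 6 IgG sites with 51 tags (38.0 to 67.1), lower with OLIG2 than with IgG. Both ratios compare single libraries. The transcript RPKM beside the sites was 1.80 for Egfr and 0.000737 for Erbb3.

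The wider pathway was read from gene lists of related receptors (24 genes), ligands (31), adaptors and effectors (35) and feedback regulators (22 matched). Ligands carried the most H3K27me3, with 13, 19 and 18 of 31 genes by stage, whereas 3, 3 and 0 of 35 adaptors and effectors had it. The share of all protein-coding genes was 15.1%, 16.4% and 9.55%. H3K4me3 was listed at 28, 24 and 18 of 31 ligands and at 35, 35 and 29 of 35 adaptors and effectors (background 64.3%, 60.8% and 43.6%). The marks overlapped at all 3 stages at the related receptor Insrr and at the ligands Fgf9, Fgf15, Igf1, Bdnf, Ntf5 and Pdgfb. Among these were ligands of the receptors above, IGF1 for IGF1R and BDNF and NT-4 (Ntf5) for TRKB. At Bdnf the H3K4me3 fold enrichment was 7.98, 6.46 and 3.72 and the H3K27me3 fold enrichment 3.26, 4.88 and 4.75 in NSCs, OPCs and NFOs.

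H3K27me3 absent from the NSC list was listed at both later stages at 4 related receptors (Met, Pdgfrb, Tyro3 and Ltk), and among the 7 ligands with this pattern Areg had the highest fold enrichment, 10.0 in OPCs and 5.51 in NFOs. The feedback regulators Lrig1, which lowers ERBB and MET receptors at the membrane, and Lrig2 had it too. The share of all genes with this pattern was not computed. The reverse, H3K27me3 in NSCs alone, was listed at the receptors Kit and Musk and the ligands Tgfa and Fgf13. The effectors Pik3ca and Akt2 and the ERK phosphatase Dusp6 had this reverse pattern too. The NSC fold enrichments of Musk (2.79), Pik3ca (3.00), Akt2 (2.57) and Dusp6 (3.44) miss the Methods filter. Those of Kit, Tgfa and Fgf13 were 3.90, 4.50 and 4.80, above its limit on fold enrichment. The share of all genes with the reverse pattern was not computed either. H3K4me3 was listed in NSCs but in neither later stage at the ligands Fgf1, Fgf22, Ereg and Igf2 and at Igfbp4. OLIG2 was listed at 4 and 14 of 31 ligands, 16 and 22 of 35 adaptors and effectors, and 10 and 8 of 22 feedback regulators in OPCs and NFOs. The background was 16.5% and 28.2% of protein-coding genes, not matched for gene length. OPC and NFO peaks overlapped at 10 list genes, namely Kit, Frs2, Frs3, Shc4, Sos1, Fyn, Spry4, Spred2, Lrig1 and Dusp4. Such an overlap was listed at 3.38% of all protein-coding genes, so the count of 0 of 31 ligands was near the background. The overlapping peaks with the highest values were at negative regulators of RAS-MAPK signalling, Spred2 (38.7 in OPCs and 31.2 in NFOs) and Spry4 (13.4 and 52.0), and at the receptor gene Kit (32.5 and 13.0).

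**Figure D5:**
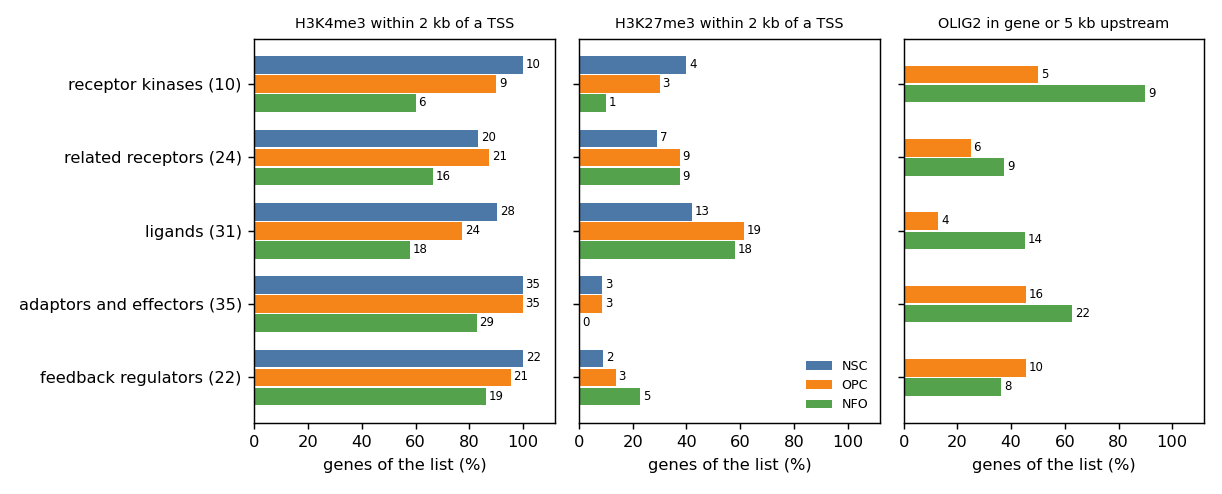
Percent of each gene list (y axis, number of genes in brackets) with a listed H3K4me3 or H3K27me3 peak within 2 kb of a TSS or an OLIG2 peak in the gene or 5 kb upstream, by stage, with the count at each bar. H3K27me3 bars are longest for ligands, at 13, 19 and 18 of 31 genes, and OLIG2 bars rise from OPCs to NFOs for every list except the feedback regulators.

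The pattern of the 8 calls, 3 of H3K4me3, 3 of H3K27me3 and 2 of OLIG2, was used to name the genes most like each receptor gene. Erbb3 and Erbb4 shared 1 pattern, H3K4me3 throughout with H3K27me3 in NSCs alone and OLIG2 at both stages, with 183 protein-coding genes in all, Kit among them. For both genes this pattern depends on the cut-offs. At Erbb3 an OPC H3K27me3 peak lay just outside the 2 kb limit, and the NSC peak of Erbb4 misses the Methods filter. Igf1r and Ntrk2 shared the pattern of H3K4me3 throughout, no H3K27me3 and OLIG2 at both stages with 965 genes, 17 of the list genes among them. For Igf1r the absence of H3K27me3 holds for the GENCODE TSSs and not for the RefSeq start. Ntrk3 differed from these by having no OPC OLIG2 peak (1592 genes). The pattern of Fgfr2 was that of Met (49 genes) and the pattern of Fgfr3 that of its relative Fgfr4 (92 genes). Erbb2 had the rarest pattern of the 10, held by 15 genes. That pattern rests on its OPC H3K27me3 peak, whose fold enrichment of 3.04 misses the Methods filter. The patterns were made from all listed peaks, without that filter.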

How the data were processed

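ChIP-Seq of 6 histone and 2 OLIG2 libraries and RIP-Seq of 2 libraries were read as deposited, from 13 samples in all, with 1 library per group. The 3 input libraries were not used here, and OLIG2 in NSCs was not analysed here. Reads were mapped by the authors to mm10 with Bowtie2, broad histone peaks were called with MACS2, OLIG2 peaks with SPP and RIP sites with ASPeak, and blacklisted regions were removed. The submitters' processing notes name Bowtie2 and MACS2 without versions. The deposited lists give a fold enrichment (a ratio to control) and a −log10 FDR per peak, made by the authors. The deposited RIP tables give a tag count and a p-value per site and the RPKM of the transcript, computed by the authors. That RPKM was the same in both RIP libraries.

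Peaks were assigned to GENCODE M21 genes of mm10. Transcripts that start over 100 kb outside the RefSeq span of their gene were left out, which changed 43 genes. This cut the Fgfr2 span from 2.96 Mb to 103813 bp and the Ntrk3 span from 562054 to 482151 bp. An overlap was at least 1 bp. The lists as deposited were the main setting, and the Methods filters (FDR below 0.05 with fold enrichment above 3.5 for histones or 5 for OLIG2) were alternatives. Percentiles are over the protein-coding genes with the same mark at the same stage. Sequences came from GRCm38 and promoters from RefSeq GRCm38.p6. List genes were named where OPC and NFO OLIG2 peaks overlapped, where both marks overlapped at every stage, or by the stages of their H3K4me3 or H3K27me3 calls, with at most 5 per list by fold enrichment unless all are given. The genes and lists were chosen with earlier results of these data known. Of 24 feedback regulators 22 matched a gene. Some list genes that met these rules are not reported here. Python 3.11.15, numpy 2.4.6, scipy 1.17.1, pysam 0.24.0 and matplotlib 3.10.9 were used, and the assignment was tested on simulated data. No test between stages was made, since there is 1 library per group, and depth is unknown for the peak lists.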

Additional observations from a re-analysis of the deposited data

How the results depend on the processing

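Of 83 alternative values for 19 results, 64 stayed within 1.5 times the reported count and 19 moved. Under the Methods filter for histones (fold enrichment over 3.5), receptor genes with H3K27me3 in NSCs went from 4 to 1 (Erbb3) and with overlapping marks in NSCs from 2 to 0. Above 5 these were 0 and 0, and the OPC H3K27me3 count went from 3 to 1 (Fgfr2). Within 1 kb of a TSS both NSC counts were 0. With OLIG2 fold enrichment above 10, genes with a peak went from 5 to 2 in OPCs (Erbb3, Erbb4) and from 9 to 4 in NFOs (Erbb3, Erbb4, Igf1r, Ntrk3), and peaks from 6 to 2 and from 21 to 6. With all GENCODE transcripts, read-through at Fgfr2 included, peaks were 21 in OPCs and 47 in NFOs and shared sites 4. Requiring that the NFO peak cover 50% of the OPC peak left 1 shared site, at Igf1r. With a transcript RPKM above 1, RIP genes went from 2 to 1 (Egfr) in both libraries. With RefSeq 5′ ends, genes with H3K4me3 over a TSS went from 9 to 5 in OPCs and from 1 to 2 in NFOs. This alternative and that with all GENCODE transcripts were chosen after seeing the data. Other than these constructions, the causes were not tested. No paired analysis was possible because each group holds 1 library. Depth is unknown for the peak lists, so an unlisted peak may be one not detectable at that depth.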
